A study of Mus musculus with 135 samples.

Results

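The genes that flank Tet1 on mouse chromosome 10 were examined in single ovulated oocytes. Members were all genes of the deposited count tables on chromosome 10 whose lowest start lies within about 10 Mb on either side of Tet1 (62804570 to 62908996, mm10 build). Tet1 itself and 3 other genes of the interval were left out. The rule gave 320 of the 53715 genes in the tables, 175 at lower and 145 at higher coordinates than Tet1. It used position only and no measured value.

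Tet1 encodes a dioxygenase that oxidises 5-methylcytosine in DNA, and it is one of 3 related enzymes, with Tet2 and Tet3. Mice with a targeted allele can also carry, on either side of it, chromosome from the strain in which the targeting was done, so neighbouring genes may differ from wild type for reasons of linkage. In a mature oocyte transcription is largely silent, and the RNA measured is mostly the maternal store laid down during growth. The comparison addressed here is whether the genes next to the targeted locus differed between Tet1 knockout and wild-type oocytes.

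All animals were labelled with the mixed strain C57BL6/129, and the labels do not give the strain of origin of the interval in any animal, so an effect of linked variants and an effect of the loss of Tet1 cannot be told apart here. The oocytes used were 38 young wild-type oocytes in 4 sets, 15 young Tet1-/- oocytes in 2 sets, 16 young Tet2-/- oocytes in 2 sets, 12 old wild-type oocytes in 2 sets, 6 old Tet1-/- oocytes in 2 sets and 7 old Tet2-/- oocytes in 1 set. Young means 2 to 4 months and old 10 to 12 months. The groups are written below as WT, Tet1KO and Tet2KO. A set is the group of oocytes that share an identifier in the sample titles, such as T146. The 13 sets fall into 2 naming series. The T or S names are T148, T211 and T231 (young WT), T146 (young Tet1KO), T213 and T214 (young Tet2KO) and S161 (old Tet2KO). The numbered names, written with their genotype as in the titles, are WT_246 (young WT), Tet1-/-_201 (young Tet1KO), WT_365 and WT_247 (old WT) and Tet1-/-_209 and Tet1-/-_315 (old Tet1KO). Set Tet1-/-_315 is a single oocyte.

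The promoters of 2 members are shown because these genes, described below, differed more than 8-fold between sets of oocytes, Arid5b by far the most. Both come from RefSeq, build GRCm38.p6, run 5′ to 3′ on the gene's strand from 250 bases before to 50 after the start, and capitals mark each CG, the dinucleotide that carries the methyl mark on which TET enzymes act. The first lies at chr10:68278677-68278976 on the minus strand and the other at chr10:71347513-71347812 on the plus strand.
Arid5b: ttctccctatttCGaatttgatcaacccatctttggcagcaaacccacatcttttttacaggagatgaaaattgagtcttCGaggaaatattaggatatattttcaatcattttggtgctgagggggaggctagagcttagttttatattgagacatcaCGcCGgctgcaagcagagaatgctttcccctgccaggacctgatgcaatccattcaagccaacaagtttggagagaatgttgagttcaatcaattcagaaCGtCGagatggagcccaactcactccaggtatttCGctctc
Ipmk: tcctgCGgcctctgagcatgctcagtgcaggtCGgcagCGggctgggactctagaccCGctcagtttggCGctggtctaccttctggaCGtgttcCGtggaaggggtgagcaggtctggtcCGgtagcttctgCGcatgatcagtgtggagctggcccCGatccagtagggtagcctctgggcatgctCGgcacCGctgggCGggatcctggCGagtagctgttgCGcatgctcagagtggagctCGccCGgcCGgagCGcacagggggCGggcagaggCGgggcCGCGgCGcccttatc
CG reads the same on both strands, and 94.6% of the 32851 promoters of this length in the table hold at least 1. The Arid5b promoter holds 7, which is the median of the table, and 52.1% of promoters have as many or more. The Ipmk promoter holds 24, and 19.98% have as many or more. Rtkn2 and Kif1bp, which also differed at least 8-fold between sets, had no entry among these promoters and are not shown. Methylation was not analysed here.

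Totals per oocyte ran from 2354503 to 12472307 counts (median 3985321), and no 2 of the 342 pairs of oocytes within a set were identical. Tet1 had 0 to 2 counts in each Tet1KO set, where 3 counts would be 0.0509 to 0.364 CPM (a count scaled to a library total of 1000000), and 1.15 to 4.61 CPM in the 9 other sets. The oocyte markers summed to 7450 to 20258 CPM in every set other than S161 and to 16732 CPM in S161, with none of the 10 at 0. Of the 10 granulosa and cumulus markers 3 to 9 were at 0 outside S161, and their sum was 22.9 to 54.4 CPM; in S161 it was 56.3 CPM with 4 at 0. The 6 macrophage markers summed to 6.18 to 14.5 CPM in 12 sets and to 192 CPM in S161, which enters none of the comparisons of Tet1KO with WT. The labels do not say whether each set is one female, so the p-values measure the spread between these sets.

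Most genes of the interval gave few or no counts in the oocyte, as did most genes of the whole tables. No count was found in any of the 94 oocytes for 119 members, and 116 more had counts but stayed under the level needed for a test (1 CPM in at least 2 sets). Of all 53715 genes in the tables, 33500 had a count and 14418 reached that level. Low counts were thus not particular to the interval. The 85 tested members, 50 below and 35 above Tet1, included 50 at a mean of 10 CPM or more and 15 at 100 CPM or more. Per kilobase of gene model, which allows levels to be compared between genes, the most abundant member was Asf1a, a chaperone of histones H3 and H4, with a level of 249 CPM per kb over the 13 sets. Asf1a overlaps Mcm9 in the annotation, and reads in the shared part were counted for both. It was followed by Ccdc6, a coiled-coil protein, at 198 CPM per kb, and by Pcbd1, the dehydratase that recycles the tetrahydrobiopterin cofactor, at 76.3 CPM per kb. Vps26a, a subunit of the retromer that returns cargo from endosomes, stood at 65.99 CPM per kb, and Supv3l1, an RNA helicase of mitochondria, at 64.05 CPM per kb. Nodal, the TGF-beta family ligand of early embryonic patterning, and Gja1, the gap junction protein of cumulus cells, were not abundant enough to be tested.

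None of the 85 tested members differed between Tet1KO and WT oocytes at an adjusted p below 0.05 in the mean of the 3 comparisons made within a naming series (young T, young numbered, old numbered; edgeR's quasi-likelihood test with Benjamini-Hochberg adjustment). In that comparison 0.0486% of all 14418 tested genes passed, 7 genes with Tet1 itself among them. The lowest adjusted p of a member was 0.271. At an unadjusted p below 0.05 there were 10 members (11.8%), beside 11.6% of all tested genes, so the flank did not stand out from the genome by this count. DESeq2 likewise called 0 members, beside 1.58% of genes, with 11 members at an unadjusted p below 0.05 beside 12.3% of genes. limma called 0, beside 0.0624% of genes, with 10 members at an unadjusted p below 0.05 beside 10.3%. The log2 changes of members had a median SE of 0.24 and a range of SE from 0.12 to 1.56, which sets how small a change could be seen.

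The same held in each comparison taken alone. Tet1 itself did not pass there either (edgeR), with log2 changes of -6.27, -9.80 and -5.12 in young T, young numbered and old numbered sets. These edgeR tests missed the knocked-out gene, so their counts of 0 say little about the flank. In young T sets 0 members passed, beside 0.0486% of all genes, and 1 member had an unadjusted p below 0.05, beside 3.16% of genes. In young numbered sets 0 members passed, beside 0.0555% of genes, and 5 had an unadjusted p below 0.05, beside 6.92%. In old numbered sets 0 members passed, beside 0.0694% of genes, and 6 had an unadjusted p below 0.05, beside 12.2%. DESeq2 called 0 members in each of the 3, beside 0.312%, 0.811% and 2.28% of genes, with 4, 6 and 8 members at an unadjusted p below 0.05 beside 3.95%, 7.38% and 12.9%. limma called 0 in each, beside 0.0347%, 0.0139% and 0.125% of genes, with 1, 6 and 6 members at an unadjusted p below 0.05 beside 3.08%, 5.37% and 12.4%. The young comparisons have 1 Tet1KO set each, and the numbered one also has 1 WT set, so these lone sets are assumed to vary like the sets of the other groups. The difference between naming series (0 members, 0.00694% of genes) and the difference between ages (0 members, 0.0208% of genes) gave no call either, with 5 members (5.04% of genes) and 1 member (4.63% of genes) at unadjusted p below 0.05. For these 2 differences DESeq2 called 0 members, beside 0.395% and 0.381% of genes, with 7 and 1 at an unadjusted p below 0.05 beside 5.31% and 4.83%. limma called 0, beside 0.0347% and 0.0208% of genes, with 4 and 2 at an unadjusted p below 0.05 beside 4.17% and 3.41%.

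Distance from Tet1 did not order the size of the changes. Over the mean of the 3 comparisons, the median absolute log2 change was 0.22 for the 22 tested members within 1 Mb, 0.19 for the 8 from 1 to 2.5 Mb, 0.17 for the 23 from 2.5 to 5 Mb and 0.19 for the 32 from 5 to 10 Mb. It was 0.24 for 609 tested genes on the rest of chromosome 10, 0.29 for 84 genes within 10 Mb of Tet2 on chromosome 3, and 0.24 for all tested genes. The unadjusted p was below 0.05 for 3 of the 22 nearest members (13.6%), for 12.0% of the rest of chromosome 10 and for 13.1% of the genes around Tet2. In the single comparisons this count of the 22 was 0 in young T sets, 2 (9.09%) in young numbered sets and 4 (18.2%) in old sets, beside 3.16%, 6.92% and 12.2% of all tested genes. The value for the nearest block was 0.38 without T146, where only the mean of the numbered comparisons remains. It was 0.35 without Tet1-/-_209 and 0.15 without Tet1-/-_315, so this value depends on single Tet1KO sets. Both sides of Tet1 were alike in size, with a median absolute log2 change of 0.19 below and 0.22 above. An unadjusted p below 0.05 (edgeR) was more frequent below, at 14% beside 8.57% above and 11.6% of all tested genes. In the single comparisons the shares below and above were 2% and 0% in young T sets, 8% and 2.86% in young numbered sets and 12% and 0% in old sets.

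**Figure D1:**
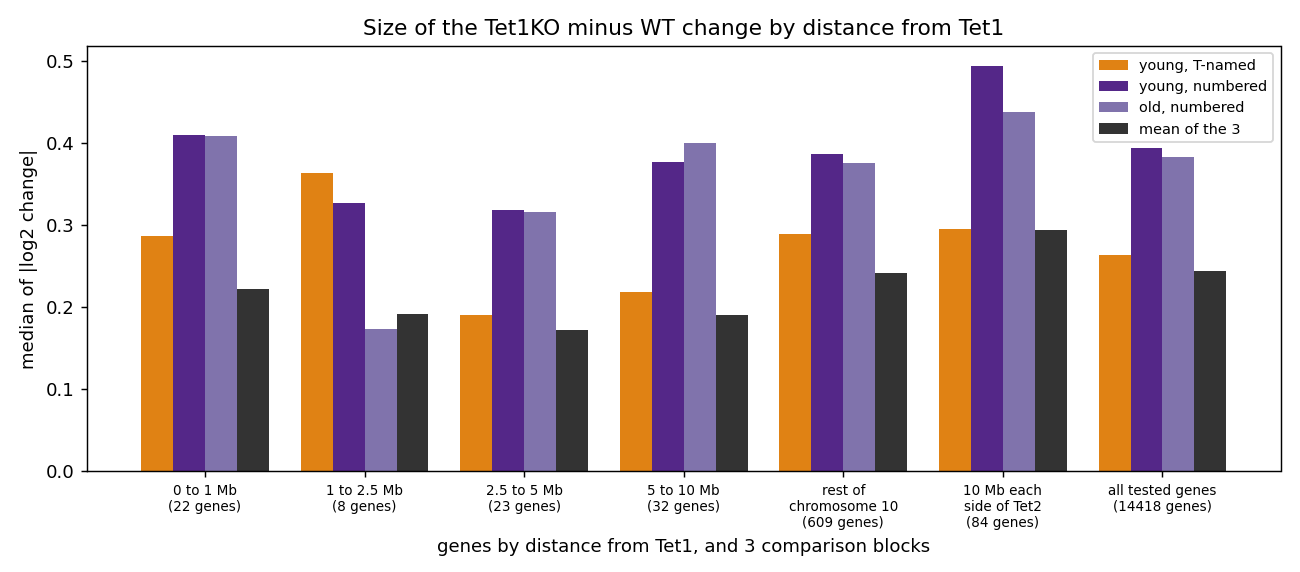
Bars give the median absolute log2 change of Tet1KO minus WT (vertical axis) for tested members in 4 ranges of distance from Tet1, for the rest of chromosome 10, for genes within 10 Mb of Tet2 and for all tested genes. Colours are the 3 within-series comparisons and their mean; the mean is 0.22 within 1 Mb and 0.24 over all genes.

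**Figure D2:**
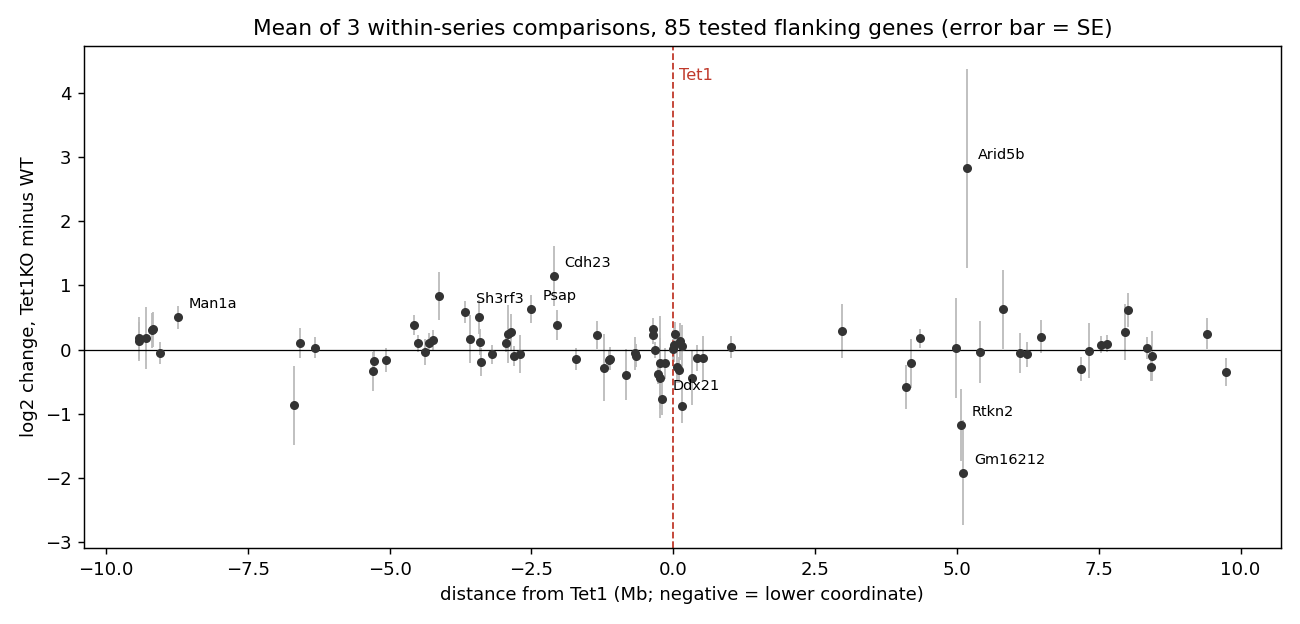
Each point is 1 of the 85 tested members, placed by its distance from Tet1 in Mb (negative is the lower coordinate), with the log2 change of Tet1KO minus WT in the mean of the 3 comparisons and its SE as a bar. Most points lie near 0, and Arid5b, at 2.82, has the highest log2 change and a SE of 1.56.

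Of the genes closest to Tet1, Ccar1, a transcription coactivator 0.01 Mb away, was at 199, 237 and 217 CPM in the young WT T sets and at 222 CPM in T146. It was at 159 CPM in WT set WT_246 and 174 CPM in Tet1-/-_201, and at 183 and 252 CPM in the old WT sets beside 149 and 182 CPM in the old Tet1KO sets. Its log2 change was 0.01 with a SE of 0.15. The Tet1KO values fall among or near those of WT. Dna2, the nuclease and helicase of DNA replication and repair, had a log2 change of 0.24 (SE 0.18). Slc25a16, a mitochondrial carrier, had 0.07 (SE 0.26), though its level ran from 23.4 CPM in T211 to 117 CPM in WT_246, both WT. Vps26a had -0.01 (SE 0.12) and Supv3l1, which shares reads with an overlapping gene model, 0.23 (SE 0.15). Hnrnph3, a splicing factor that overlaps Rufy2, had -0.32 (SE 0.20), and Rufy2, a protein of endosomes, -0.28 (SE 0.25). Sirt1, an NAD-dependent deacetylase, had -0.13 (SE 0.20) in the mean. In the single comparisons it went from 0.66 in young T sets to -1.03 in young numbered sets, a difference with an unadjusted p of 0.00938 and an adjusted p of 0.806 (edgeR). Srgn and Kif1bp are described further on. Of the 6 other members within 1 Mb that reach 5 CPM, Ctnna3, Ddx50, Fam241b, Neurog3, Pbld2 and the overlapping gene 4930507D05Rik, log2 changes in the mean ran from -0.22 for Ddx50 to 0.33 for 4930507D05Rik. In old sets alone these 2 had -0.93 (SE 0.35) and 0.60 (SE 0.25), with edgeR adjusted p of 0.336 and 0.389.

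Ddx21, a nucleolar RNA helicase 0.20 Mb from Tet1, was at 2.74, 4.30 and 4.26 CPM in the young WT T sets and at 2.70 CPM in T146. In numbered sets it was at 4.52 CPM in WT_246 and 3.02 CPM in Tet1-/-_201, and at 3.93 and 3.58 CPM in the old WT sets beside 1.61 and 0.97 CPM in the old Tet1KO sets. In CPM, each Tet1KO set lay below each WT set of its comparison. The margin between T146 and T148 was small, and CPM leave out the TMM scaling factors of the fit. These factors, 0.986 for T146 and 1.003 for T148, reverse the order of the 2 sets. Its log2 change was -0.77 (SE 0.25) and its adjusted p 0.311 (edgeR). In the young Tet2KO sets, compared with the same WT T sets, it was at 5.68 and 6.93 CPM, a log2 change of 0.71 (SE 0.31, edgeR adjusted p = 0.981).

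Pbld1 and its near copy Pbld2 lie 0.15 and 0.12 Mb from Tet1. Reads that map to several places were kept only at a mapping quality of at least 30. How reads were split between these genes was not tested. Pbld1 was at 2.44, 4.06 and 3.73 CPM in young WT T sets and 1.68 CPM in T146, and at 2.11 CPM in WT_246 and 1.15 CPM in Tet1-/-_201. In old sets it was at 2.57 and 2.41 CPM in WT and at 1.52 and 0.97 CPM in Tet1KO. Here too the Tet1KO sets lay below the WT sets of each comparison, with a log2 change of -0.87 (SE 0.28) and an edgeR adjusted p of 0.304. Pbld2 had a log2 change of 0.13 (SE 0.29).

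In CPM, without the TMM factors of the fit, sets did not overlap in the same direction in all 3 comparisons for 7 members (8.24%). The share of all tested genes was 7.93%. The 7 members were Sh3rf3, Gm4981 and Edar, higher in Tet1KO, and Ddx21, Pbld1, Reep3 and Ccdc6, lower in Tet1KO. Ddx21 is among them only without the TMM factors. At the level of single oocytes, which asks that every Tet1KO oocyte lie beyond every WT oocyte, 0 members and 0% of tested genes did so in all 3.

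Sh3rf3, a RING and SH3 domain ubiquitin ligase 3.67 Mb from Tet1, had the smallest p of the members. It was at 28.3, 28.8 and 29.8 CPM in young WT T sets and at 30.4 CPM in T146, so that T comparison hardly differed. In numbered sets it was at 42 CPM in WT_246 and 72.2 CPM in Tet1-/-_201, and at 27.8 and 32.4 CPM in old WT beside 50.3 and 45.2 CPM in old Tet1KO. The log2 change was 0.59 (SE 0.17), with an adjusted p of 0.271 in edgeR and 0.0944 in DESeq2. Its adjusted p went from 0.145 to 0.593 over edgeR fits that left out a set.

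Psap encodes prosaposin, the precursor of the saposins with which lysosomes break down sphingolipids. It was at 33.3, 29.98 and 25.2 CPM in young WT T sets and 27.3 CPM in T146, at 37.6 CPM in WT_246 and 85.2 CPM in Tet1-/-_201, and at 45.2 and 29.6 CPM in old WT beside 72.9 and 40.1 CPM in old Tet1KO. The groups overlap in the T and old comparisons. Its log2 change was 0.63 (SE 0.21, edgeR adjusted p = 0.329). Leaving out Tet1-/-_201 or WT_246 removes the young numbered comparison, and the mean of the other comparisons was 0.34. The summed macrophage markers were 10.1 CPM in Tet1-/-_201 and 11.7 CPM in WT_246, 10.1 and 6.18 CPM in the old Tet1KO sets, and 12.6 and 11.4 CPM in the old WT sets. Srgn, the proteoglycan serglycin of secretory granules 0.28 Mb from Tet1, had log2 changes of opposite sign in the 2 naming series. It was at 166, 168 and 149 CPM in young WT T sets and 206 CPM in T146, but at 143 CPM in WT_246 and 71.1 CPM in Tet1-/-_201, and at 114 and 128 CPM in old WT beside 91.7 and 53.9 CPM in old Tet1KO. The log2 change was 0.40 (SE 0.26) in the young T sets and -0.98 (SE 0.33) in the young numbered sets. That difference between naming series had an unadjusted p of 0.00831 and an adjusted p of 0.784 (edgeR).

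Man1a, a Golgi mannosidase that trims N-glycans, was higher in the young T comparison, at 21.1 CPM in T146 beside 14.2, 13 and 12.2 CPM in WT. The log2 change was 0.74 there, 0.72 (SE 0.37) in young numbered sets and 0.06 in old sets, and 0.50 (SE 0.18, edgeR adjusted p = 0.352) in the mean. Bicc1, an RNA-binding protein related to fly Bicaudal C, had 0.62 (SE 0.26), Gm4981, a predicted gene, 0.39 (SE 0.15), and Cdh23, a cadherin known from hair cell tip links, 1.14 (SE 0.47). Cdh23 is near the limit of the test, with a mean of 0.69 CPM. The edgeR adjusted p was 0.411 for Bicc1, 0.385 for Gm4981 and 0.402 for Cdh23.

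Arid5b, an AT-rich interaction domain protein that brings the histone demethylase PHF2 to its targets, differed most between sets. It lies 5.18 Mb above Tet1 (chromosome 10, 68092520 to 68278740, mm10) and overlaps no other gene model. It was at 3.68, 170 and 3.96 CPM in T148, T211 and T231 (young WT) and at 124 CPM in T146 (young Tet1KO). In the young numbered sets it was at 4.6 CPM in WT and 295 CPM in Tet1KO. In old sets it was at 1.2 CPM in WT_365 and 153 CPM in WT_247, both WT, and at 210 and 129 CPM in Tet1KO. The young Tet2KO sets were at 4.6 and 215 CPM and the old Tet2KO set at 242 CPM. So every Tet1KO set was high, 4 of 4, but so were 2 of the 6 WT and 2 of the 3 Tet2KO sets, and no set had a level between 4.6 and 124 CPM.

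The split held oocyte by oocyte. In the 5 low sets the highest of 43 oocytes was at 12.9 CPM, in T213. In the 8 high sets the lowest of 51 oocytes was at 17.8 CPM, in set Tet1-/-_209, whose 5 oocytes had a median of 222 CPM and a highest value of 407 CPM. In T211 the 8 oocytes ran from 136 to 207 CPM (median 168), and in T148 from 1.27 to 8.23 CPM (median 3.0). Arid5b was the only member whose sets fell into 2 ranges of oocytes that do not overlap with at least 2 sets on each side (1.18% of members, 0.534% of tested genes), a rule chosen after the values were seen. A fold of at least 100 between the highest and lowest set, at 10 CPM or more, was found for 1 member, Arid5b, and for 0.104% of tested genes.

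**Figure D3:**
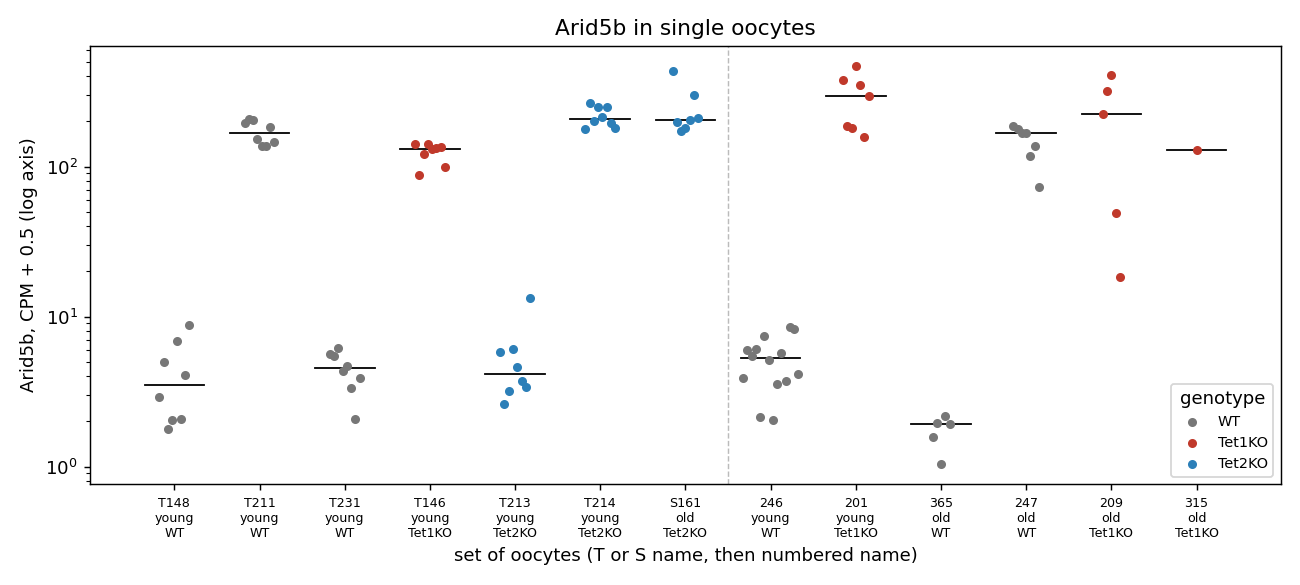
Arid5b in each of the 94 oocytes, as CPM + 0.5 on a log axis, by set and genotype; the bar is the median of a set and the dashed line divides T or S names from numbered names. All 4 Tet1KO sets are high, as are WT sets T211 and WT_247 and Tet2KO sets T214 and S161, while the 5 other sets lie at or below 12.9 CPM.

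WT sets were found at both levels, and the difference by genotype did not exceed the spread between sets. The log2 change of Arid5b was 2.82 (SE 1.56, edgeR adjusted p = 0.519) in the mean, 1.13 (SE 2.27) in young T sets, 6.04 (SE 3.66) in young numbered sets and 1.30 (SE 2.11) in old sets. In young Tet2KO sets it was 0.88 (SE 1.88) against the same WT T sets. The size depends on single sets: the mean was 4.14 without T211 and 4.81 without WT_247. Leaving out WT_246 or Tet1-/-_201 removes the young numbered comparison, and the mean of the other comparisons was 1.22. The adjusted p lay from 0.380 to 0.865 over the alternatives with the low-count filter, by edgeR, DESeq2 or limma. In young numbered sets, 1 against 1, every Tet1KO oocyte was above every WT oocyte, for Arid5b alone among members (1.18%), beside 0.583% of tested genes. In young T sets this was so for 1 member, beside 0.513% of tested genes, and in old sets for 0 members, beside 0.936%.

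The member of the young T sets was Ppa1, an inorganic pyrophosphatase 1.13 Mb from Tet1. Its oocytes ran from 78.4 to 126 CPM in T146 (median 112), and the lowest of the WT oocytes in T148, T211 and T231 was at 131 CPM. In numbered sets Ppa1 was at 131 CPM in WT_246 and 130 CPM in Tet1-/-_201, and at 173 and 141 CPM in old WT beside 155 and 119 CPM in old Tet1KO. The lower level in T146 was not seen between the young numbered sets.

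Other members, each taken alone, also differed between sets in a way that genotype did not follow. Besides Arid5b, 3 members, Rtkn2, Ipmk and Kif1bp, had a highest set at least 8-fold the lowest and at 10 CPM or more, which makes 4 of 85 (4.71%), beside 3.67% of tested genes. This rule too was chosen after the values were seen. Rtkn2 starts 5.07 Mb from Tet1 (67979570 to 68059740) next to Arid5b. It was at 8.08, 14.3 and 21.2 CPM in the young WT T sets and 3.85 CPM in T146. It was at 3.59 CPM in WT_246 and 3.88 CPM in Tet1-/-_201, and at 1.41 and 13.52 CPM in old WT beside 2.27 and 1.45 CPM in old Tet1KO. All 4 Tet1KO sets were low, but WT sets WT_246 and WT_365 were as low. The Tet2KO sets were at 22.3, 15.6 and 10.1 CPM. Arid5b was low in WT_246 and WT_365, and high in T211 and WT_247, where Rtkn2 was at 14.3 and 13.52 CPM. By set, Rtkn2 at 3.88 CPM or less together with high Arid5b was thus seen in every Tet1KO set and in no other set. Single oocytes overlapped. Rtkn2 reached 7.83 CPM in an oocyte of T146, and Tet2KO oocyte S1612 had 4.74 CPM with Arid5b at 435 CPM. This pairing and its level were chosen after the values were seen and were not tested. How many other pairs of genes separate these sets was not computed. The log2 change of Rtkn2 was -1.18 (SE 0.56, edgeR adjusted p = 0.461). Gm16212 overlaps Rtkn2, its reads cannot be told from those of Rtkn2 without strand, and it had a log2 change of -1.92 (SE 0.82, edgeR adjusted p = 0.417).

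Ipmk, the inositol polyphosphate multikinase, lies 8.44 Mb above Tet1 and overlaps no other gene model. It was at 287, 60.004 and 204 CPM in young WT T sets and 59.2 CPM in T146. It was at 332 CPM in WT_246 and 431 CPM in Tet1-/-_201, and at 304 and 216 CPM in old WT beside 503 and 362 CPM in old Tet1KO. The low sets were thus 1 WT and 1 Tet1KO set, and the other 11 sets lay at 146.1 CPM or more. In T211 and T146 no oocyte exceeded 77.8 CPM, but single oocytes did not separate these sets from the others. The lowest oocyte of T213 was also at 77.8 CPM, and the lowest of WT_246 was at 81.7 CPM. The log2 change was -1.59 (SE 0.71) in young T sets, 0.89 (SE 0.56) in old sets and -0.10 (SE 0.39, edgeR adjusted p = 0.947) in the mean. Kif1bp, a protein that binds kinesins, ranged from 0.36 CPM in Tet1-/-_315, from 3 counts of a single oocyte, to 12.6 CPM in WT_246. In T211, Asf1a was at 287 CPM, below the 657 to 1381 CPM of the other 12 sets.

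**Figure D4:**
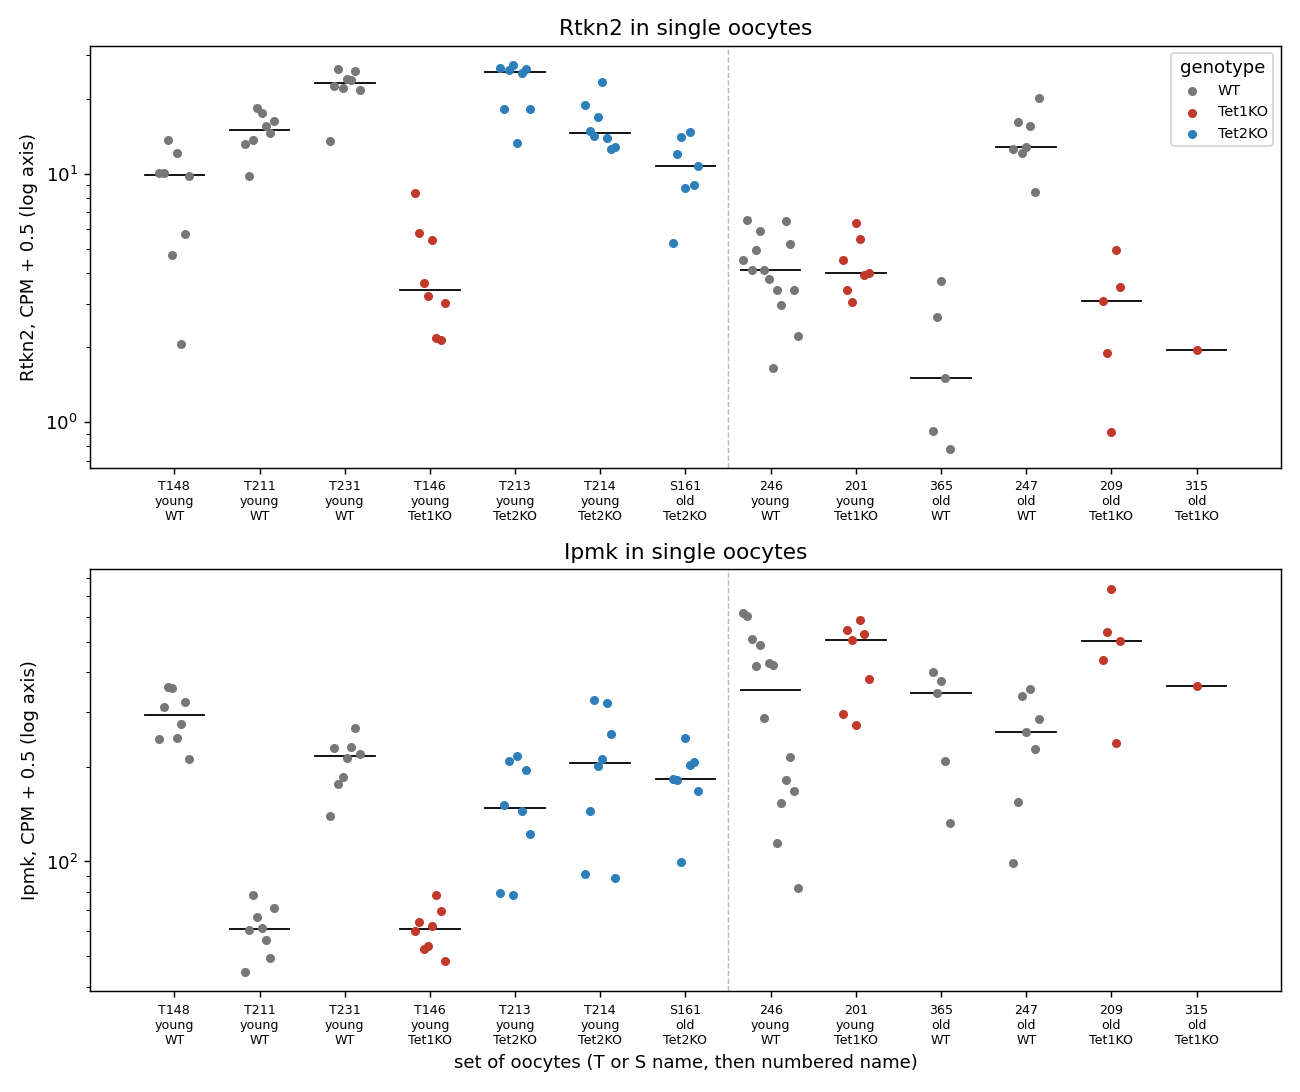
Rtkn2 (top) and Ipmk (bottom) in each oocyte, as CPM + 0.5 on a log axis, by set and genotype, with the median of each set as a bar. Rtkn2 is low in the 4 Tet1KO sets and in WT sets WT_246 and WT_365; Ipmk is low in WT set T211 and Tet1KO set T146.

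**Figure D5:**
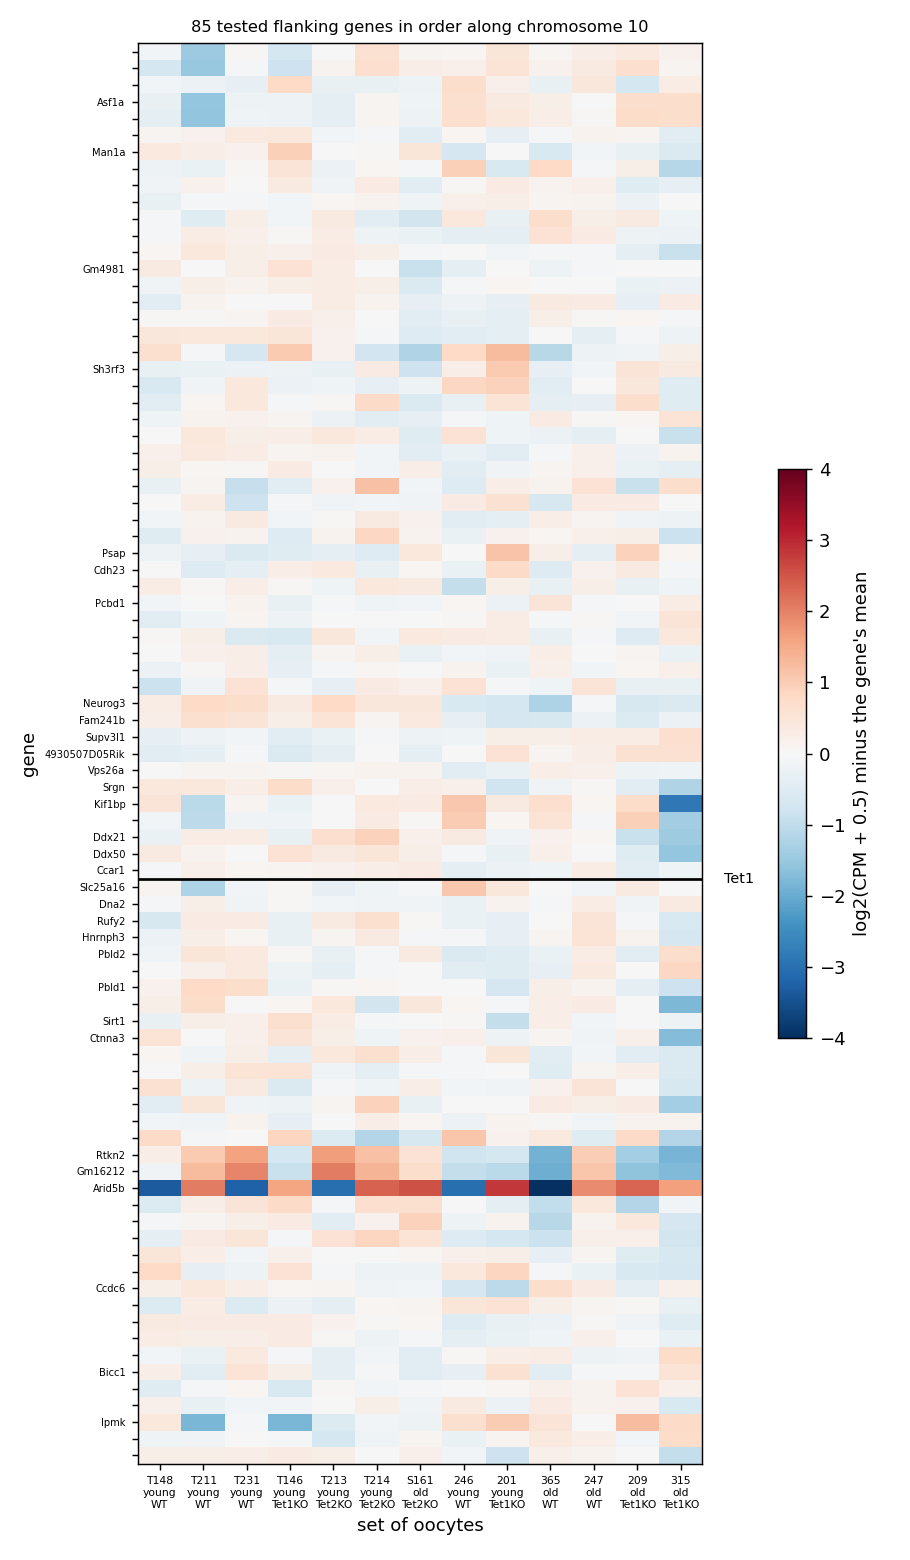
The 85 tested members in order along chromosome 10 (vertical axis, with names for genes described in the text and Tet1's place as a line) in the 13 sets (horizontal axis), coloured by log2(CPM + 0.5) minus the gene's mean over sets. Arid5b, Rtkn2 with Gm16212, and Ipmk stand out by set. Rtkn2 is low and its neighbour Arid5b high in all 4 Tet1KO sets, a pairing noticed after the values were seen and not tested. In WT_246 and WT_365 Rtkn2 is low but so is Arid5b. In T211 and WT_247 Arid5b is high but Rtkn2 is not low.

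Grouped by function, no list had a member that passed the test. The median log2 change over all tested genes was -0.02, and 1670 of 14418 had an unadjusted p below 0.05. Of 8 tested genes of RNA helicases and RNA processing 0 passed, with 4 log2 changes above 0 and 4 below. Their median log2 change was -0.03, with 1 unadjusted p below 0.05 (Ddx21, edgeR). Of 7 tested mitochondrial genes, among them Mcu, the pore of the mitochondrial calcium uniporter, 0 passed and the median was -0.07. Of 6 tested chromatin genes 0 passed, with a median of -0.05 and Arid5b as the highest log2 change. Of 7 tested genes of cell division and ubiquitin 0 passed, with a median of -0.30 and Rtkn2 as the lowest log2 change. The 4 tested genes of sphingolipids and lysosome had 0 passing, a median of 0.19 and 1 unadjusted p below 0.05 (Psap), and the 3 tested genes of glucose and amino acid handling 0 and -0.02. The 6 tested genes of membrane traffic had 0 and -0.16 with 1 unadjusted p below 0.05 (Man1a), and the 4 tested genes of signalling in development 0 and 0.25 with 1 (Bicc1). The other 4 lists had no unadjusted p below 0.05. Nodal, Gja1, Unc5b and Atoh7, on the list of signalling in development, were too low to test.

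Tet2KO oocytes, in which the interval was not targeted, gave a similar picture in the young T sets. Of the 85 members 0 passed (0.0208% of genes passed) and 2, Gm47641 and Ddx21, had an unadjusted p below 0.05, beside 4.24% of genes. In 0 members, and 0.0832% of genes, did all Tet2KO oocytes lie beyond all WT oocytes. The comparison shares its 3 WT sets with that of T146. Between T146 and the Tet2KO sets directly, 0 members passed (0.0208% of genes) and 7 had an unadjusted p below 0.05, beside 9.11% of genes. DESeq2 called 0 members in both, beside 0.104% and 0.742% of genes, with 3 and 10 at an unadjusted p below 0.05 beside 4.68% and 10.2%. limma called 0 in both, beside 0.0208% of genes each time, with 2 and 11 at an unadjusted p below 0.05 beside 5.11% and 9.26%. The member of smallest p was Man1a, with a log2 difference of 1.03 (SE 0.31, edgeR adjusted p = 0.506).

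In purified primordial germ cells (PGC) at E13.5, for which there is 1 library a genotype and no test, 59 of the 70 tested members listed were at 1 FPKM or more in WT, with a median of 8.56 FPKM. These 70 were already limited to members with enough counts in oocytes, and the share over all genes was not computed. Arid5b was at 10.4 FPKM in WT and 15.7 FPKM in the library labelled Tet2KO. Rtkn2 was at 8.77 and 10.1 FPKM and Ipmk at 27.3 and 29.4 FPKM. Neurog3, a transcription factor of endocrine pancreas that overlaps Fam241b, was at 0.03 FPKM in WT germ cells and at 9.54 CPM per kb in oocytes, on scales that were normalised separately.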

How the data were processed

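Single ovulated oocytes and E13.5 primordial germ cells were sequenced. The deposited oocyte tables hold raw read counts per gene that the authors made, per the file headers, with featureCounts on GENCODE M17 without strand, keeping overlapping and multiply mapped reads at a mapping quality of at least 30. The submitters' processing notes also name HISAT2, SAMtools and mm10. The deposited germ cell table gives FPKM values that the authors computed; how is not given in the sources used here.

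Of 133 oocytes, 94 were used. The labels of 39 samples gave no usable group, and 39 count columns that match no label were not used. Counts were summed per set (13 sets; CPM values are scaled to a total of 1000000 over all genes) and fitted with edgeR 4.0.16 (R 4.3.3) as 8 means of group by naming series, with 5 residual degrees of freedom, TMM factors, genes at 1 CPM or more in at least 2 sets and Benjamini-Hochberg adjustment over 14418 genes. Standard errors come from the F statistic. The fit was tested on simulated data. DESeq2 1.42.0, limma 3.58.1, other filters and left-out sets were alternatives. Where leaving out a set removed a comparison, the mean was taken over the comparisons that remained. Distances run from the nearest edge of Tet1.

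Genes named are Arid5b, the Tet genes, any member called, the 10 of smallest p in the mean comparison, members within 1 Mb at 5 CPM or more, the 5 most abundant per kb, and members that differ 8-fold or more between sets, the last chosen after their values were seen, as were Ppa1 and other members singled out in a count. The members and lists were chosen with earlier results of these data known.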

Additional observations from a re-analysis of the deposited data

Results flagged for a closer look

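In the 4 young WT sets, 3 of the 31 named members had 1 set far from the others (Dixon's test, 95% level, which flags about 1 in 20 groups by chance). For Arid5b it was T211 at 170 CPM, with a gap of 0.994 of the range. For Sh3rf3 it was WT_246 at 42 CPM, and for Ddx21 it was T148 at 2.74 CPM, with gaps of 0.891 and 0.857 of the range. Set WT_246 is also the one young WT set with a numbered name, and its part in the Sh3rf3 value was not tested. Part of the 31 members were named for their values in these same data, so the rate of 1 in 20 does not hold for them. The share of all tested genes flagged by this rule was not computed.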

How the results depend on the processing

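The count of 0 members called held with DESeq2, RLE factors, a filter at 5 CPM and limma. In the comparisons fitted, it also held with the additive series model and when oocytes or 1 of the young WT T sets were left out. Windows of 5 or 2 Mb and members free of overlaps are parts of the same 85 members, so their count of 0 was fixed in advance. With no low-count filter, every member with a count was tested and edgeR called 3 in the mean, 4 in young T, 1 in young numbered and 3 in old sets, 0 for Tet2KO, 4 for Tet1KO minus Tet2KO, 2 for the series and 1 for the age difference. The shares of members called were 1.49%, 1.99%, 0.498%, 1.49%, 0%, 1.99%, 0.995% and 0.498%, beside 1.70%, 0.916%, 0.501%, 1.67%, 0.493%, 1.87%, 0.603% and 0.487% of 33500 genes. These were Arid5b, Rtkn2, Gm16212, Ipmk and Zfp365. There the prior degrees of freedom came out infinite, against 4.62 with the filter, so a gene's own spread between sets no longer counts. Arid5b then had 2.81 with an edgeR adjusted p of 9.4e-39, Gm16212 -1.93 and Rtkn2 -1.18. Members that do not overlap in all 3 comparisons were 7 by sets and 0 by oocytes, in CPM without TMM factors. The median absolute log2 change within 1 Mb ran from 0.15 to 0.38 when sets were left out. The highest was without T146, where only the numbered comparisons remain, and the cause was not tested. Of 647 alternative log2 changes of named members, 610 kept the direction of the main value and 0 were counted as reversed. A further 34 changed sign for members whose value lies within its SE, and the few others were in none of these counts. No paired analysis was possible because numbers name oocytes within a set and do not pair sets between groups. With 1 or 2 Tet1KO sets a comparison, the spread between sets limits which changes can be seen.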
